A study of Mus musculus with 69 samples.

Results

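Protein kinase A (PKA) subunits and anchors were followed through ribosome-bound mRNA of cortical neurons. The members were 10 genes of the 17634 in the count table, chosen by their symbols, namely the regulatory subunits Prkar1a and Prkar2b, the catalytic subunits Prkaca and Prkacb, and the anchors Sphkap, Akap5, Akap6, Akap9, Akap11 and Akap13. Sphkap was selected on opposite signs of its KO versus WT differences in the neuron classes of these same libraries. Its KO versus WT values, and its class differences within KO and within WT, which rest on the same libraries, are therefore given as a description with no test. The other 9 members were tested in every comparison. All 10 members passed the filter on low counts in every comparison.

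The mice were Fmr1 KO or WT, 70 to 100 days old, and lacked or carried the gene for FMRP, the RNA-binding protein whose loss causes fragile X syndrome. Every animal carried Rpl22HA/HA, an HA-tagged ribosomal protein, together with PV-Cre or Camk2a-Cre, so that the tag marked ribosomes of parvalbumin (PV) interneurons or of Camk2a neurons, which are mainly excitatory. Immunoprecipitation of the tag from primary visual cortex (V1) or primary somatosensory cortex (S1) gave 69 libraries from 37 animals. PV libraries numbered 10 in each combination of genotype and area. Camk2a libraries numbered 6 KO and 8 WT in V1, and 7 KO and 8 WT in S1. Homogenate also holds RNA of untagged cells, some of which is recovered with the tag.

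PKA is the main kinase activated by cyclic AMP. Regulatory subunits hold the catalytic subunits inactive until cyclic AMP binds, and anchors (A-kinase anchoring proteins) bind the regulatory subunits and place the enzyme at chosen sites in the cell. In cortical neurons PKA phosphorylates ion channels, receptors and the transcription factor CREB.

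The libraries held between 27.64 and 49.11 M estimated counts each. Fmr1 lay between 6.51 and 14.7 CPM (counts scaled to library size with TMM factors) in 33 KO libraries and between 35.9 and 93.9 CPM in 36 WT libraries, so the groups did not overlap. Gad1, which makes GABA, lay between 2760 and 4270 CPM in PV libraries and between 14.3 and 547 CPM in Camk2a libraries. Slc17a7, a glutamate transporter of excitatory neurons, lay between 119 and 343 CPM in PV libraries and between 2200 and 2870 CPM in Camk2a libraries. Some libraries stood apart. Pvalb reached 19.1 to 113 CPM in the Camk2a libraries of animals C3, C18 and C19, against 1.85 to 18 CPM in the other 23 Camk2a libraries. An area score from genes of the other class placed the libraries labelled V1 of PV animals P9, P22 and P24 nearer S1, and the libraries labelled S1 of P9 and P22 nearer V1. The same score placed both libraries of Camk2a WT animal C24 nearer the other area, and the libraries labelled V1 of C18 and C19 nearer S1. Within C18 the score was 0.243 in V1 and -0.599 in S1, and within C19 it was 0.318 and -0.531. V1 thus stayed above S1 in C18 and C19, as labelled, while in C24 V1 had 0.174 and S1 0.905. The S1 library of C24 was the only one of Batch 2. Sex labels went against Y-linked genes in 3 animals. Where leaving these libraries out changed a call of a member, the change is given below, in some comparisons only as a count of members.

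The inhibitor site of the regulatory subunits separates their types, and is shown because both types are described below. Type I subunits carry a pseudosubstrate residue that cannot be phosphorylated, and type II subunits carry a serine that PKA itself can phosphorylate. The coding windows below, read 5′ to 3′ from GENCODE M21 transcripts, have the codon of that residue in capitals, which encodes alanine at residue 99 of Prkar1a, glycine at residue 99 of Prkar1b, serine at residue 97 of Prkar2a and serine at residue 112 of Prkar2b.
Prkar1a: cgacggcgccgaggtGCTatcagtgctgaa
Prkar1b: cgtcgccggcggggcGGTgtgagtgctgaa
Prkar2a: tttactagacgagtaTCAgtctgtgcagaa
Prkar2b: ttcacaaggcgtgccTCGgtctgtgcagaa

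The member proteins Prkar1a and Prkar2b were 41.3% identical over their alignment, and the catalytic subunits Prkaca and Prkacb were 90.0% identical over 351 aligned residues. Promoters were searched for the cyclic AMP response element TGACGTCA, the site CREB binds, which reads the same on both strands. It occurred in 1.55% of 32851 windows of 250 bases upstream of RefSeq gene starts (GRCm38.p6), and in 1 of 20 member windows, at Prkar1a. The window is shown with the element in capitals, chr11:109650699-109650948, plus strand, and beside it the window of Sphkap, chr1:83408201-83408450, minus strand, which held no match.
Prkar1a: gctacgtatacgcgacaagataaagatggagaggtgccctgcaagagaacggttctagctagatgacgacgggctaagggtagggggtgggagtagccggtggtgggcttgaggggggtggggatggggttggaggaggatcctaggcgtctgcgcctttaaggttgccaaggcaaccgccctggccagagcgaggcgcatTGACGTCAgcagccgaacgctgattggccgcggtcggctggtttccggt
Sphkap: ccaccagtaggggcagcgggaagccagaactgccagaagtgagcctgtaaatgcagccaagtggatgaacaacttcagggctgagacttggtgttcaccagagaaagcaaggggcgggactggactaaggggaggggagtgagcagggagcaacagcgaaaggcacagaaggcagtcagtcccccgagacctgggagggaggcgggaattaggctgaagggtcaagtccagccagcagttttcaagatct

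In Camk2a neurons, Sphkap mRNA on ribosomes was higher in Fmr1 KO libraries in both areas, and in PV neurons it was slightly lower. Sphkap is an anchor that binds type I regulatory subunits. In V1 the Camk2a values had a lowest, median and highest of 116, 190 and 227 CPM in KO libraries, against 78, 97.8 and 138 CPM in WT libraries. In S1 they were 126, 158 and 200 CPM in KO libraries, against 73.6, 86.9 and 137 CPM in WT libraries. In each area only the WT library of C24 lay within the KO range, and without it the highest WT values were 110 CPM in V1 and 107 CPM in S1. The fitted log2 fold change was 0.80 (SE 0.160) in V1 and 0.77 (SE 0.137) in S1, and 0.80 (SE 0.156) with the areas summed over 6 KO and 7 WT animals that had both.

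In PV libraries the groups overlapped. In V1 Sphkap had a lowest, median and highest of 49, 73.6 and 109 CPM in KO libraries, against 58.8, 92.9 and 149 CPM in WT libraries. In S1 the values were 76.2, 98.4 and 131 CPM in KO libraries, against 81.3, 124 and 157 CPM in WT libraries. The log2 fold change was -0.26 (SE 0.168) in V1, -0.24 (SE 0.110) in S1 and -0.22 (SE 0.078) with areas summed over 9 KO and 10 WT animals. All 9 summed KO animals lay below the WT mean. The difference of the genotype effects, PV minus Camk2a, was -1.02 (SE 0.163) on the log2 scale. Over the alternatives run, the summed values ranged from -0.26 to -0.18 in PV and from 0.71 to 0.90 in Camk2a. Fewer cells of a type and less RNA per cell cannot be told apart in such bulk libraries.

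Ordered by mean level, Sphkap ran from Camk2a KO V1 (176 ± 42.6 CPM, SD) and Camk2a KO S1 (157 ± 25.9) through PV WT S1 (122 ± 22.8), PV KO S1 (102 ± 17.7), Camk2a WT V1 (101 ± 18.9), Camk2a WT S1 (93.6 ± 20.9) and PV WT V1 (91.9 ± 27) to PV KO V1 (76 ± 17.7). The gap below Camk2a KO S1 was 35.1 CPM, and no other gap was larger than 20 CPM. The other gaps lay within the larger SD of their neighbours. The order describes the libraries on which Sphkap was chosen, and no gap was tested.

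**Figure D1:**
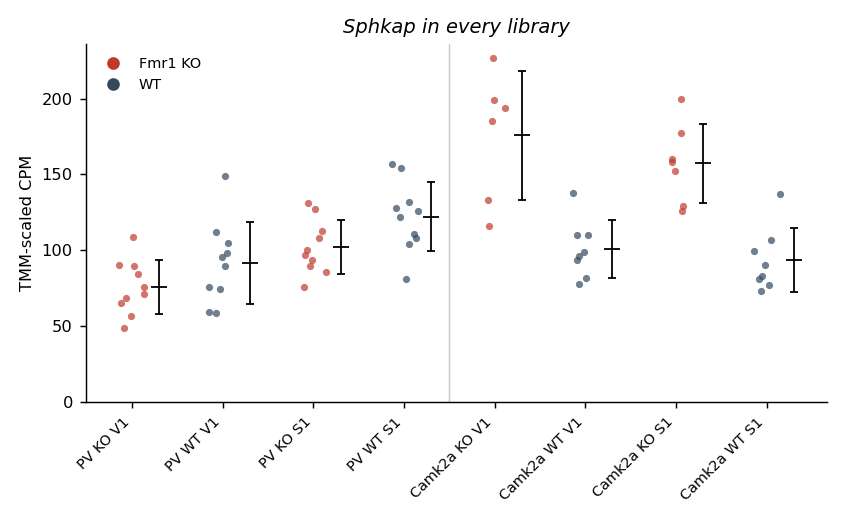
Sphkap in TMM-scaled CPM (y axis) in each library of the 8 groups (x axis), with the mean and SD beside the points. Camk2a KO libraries reached 227 CPM, and the WT library of C24 was the only WT one within their range in each area.

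Markers of other cells were compared beside these values. In Camk2a V1 libraries the summed level of 10 oligodendrocyte markers ranged from 222 to 336 CPM in KO libraries and from 273 to 446 CPM in WT libraries. In S1 it ranged from 225 to 342 CPM in KO libraries and from 308 to 500 CPM in WT libraries. Mog, Opalin and Ermn averaged under 1 CPM in both V1 groups. Astrocyte markers (10 genes) summed to 948 to 1400 CPM (median 1020) in KO S1 and 774 to 1030 CPM (median 954) in WT S1. In V1 their medians were 921 CPM in KO and 891 CPM in WT libraries. Other interneuron markers (11 genes) ranged from 754 to 1020 CPM in KO V1 and from 911 to 1340 CPM in WT V1. In S1 they ranged from 828 to 964 CPM in KO and from 834 to 1200 CPM in WT libraries. The summed level of 12 PV interneuron markers ranged from 257 to 735 CPM (median 313) in KO V1 libraries and from 295 to 1460 CPM (median 337) in WT V1 libraries. In S1 it ranged from 364 to 1420 CPM (median 445) in KO libraries and from 294 to 1870 CPM (median 431) in WT libraries. All 12 of these markers had negative KO over WT log2 fold changes in Camk2a V1 (median -1.11) and 11 of 12 in S1 (median -0.76), and none was called. The highest sums were those of C3 in KO and C19 in WT. Without C3, C18 and C19 the log2 fold change of Sphkap was 0.76 in V1 and 0.71 in S1. The alternatives with the glial score or the PV marker score as a covariate are among those whose range is given above.

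The other anchors differed less by genotype. Akap6, an anchor of the nuclear envelope, was the only one of the 9 tested members called in any KO versus WT comparison. In Camk2a S1 libraries it had a lowest, median and highest of 305, 321 and 435 CPM in KO libraries, against 246, 266 and 290 CPM in WT libraries. The groups did not overlap. The log2 fold change was 0.34 (SE 0.073, adjusted p = 0.0187 in edgeR's quasi-likelihood test), beside 4.09% of all genes called there. The call was lost without C3, C18 and C19 (0.33, adjusted p = 0.0578), without WT animal C16 (0.30, adjusted p = 0.0595) and with the glial score as a covariate (0.31, adjusted p = 0.0549), at log2 fold changes close to the reported one. With the PV marker score as a covariate it was 0.32 and still passed. In Camk2a V1 Akap6 had a log2 fold change of 0.16 (adjusted p = 0.41), in a comparison with 1.4% of genes called. With areas summed it was 0.25 (adjusted p = 0.0833), where 4.11% of genes were called. Without C24 it was 0.30 (adjusted p = 0.0245), in a fit that called 1347 of 16711 genes.

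Akap9, an anchor of the centrosome and Golgi, had log2 fold changes of 0.19 in Camk2a V1 and 0.28 in S1 (adjusted p = 0.226 and 0.103 in edgeR's test). Akap11, which binds type I subunits and the kinase GSK3, had 0.13 in V1 and 0.17 in S1 (adjusted p = 0.458 and 0.182 in edgeR's test). Without C24, Akap11 in S1 passed at 0.20 (adjusted p = 0.0481 in edgeR's test). That fit called 1634 of 15623 genes, against 641 of 15691 with C24. In PV libraries both genes were within 0.05 of 0 in each area. Akap5, the postsynaptic anchor of PKA, calcineurin and protein kinase C, had values from 0.07 in PV V1 to 0.17 in Camk2a S1, and Akap13 had values from -0.24 in PV V1 to 0.05 in Camk2a V1.

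Among the subunits, Prkar2b came nearest to a call. In PV S1 it had a lowest, median and highest of 29.9, 35.9 and 39.3 CPM in KO libraries, against 36.6, 40.5 and 44.3 CPM in WT libraries. All 10 KO libraries lay below the WT mean, and the groups overlapped. The log2 fold change was -0.18 (adjusted p = 0.0787 in edgeR's test), beside 0.77% of genes called in that comparison, and -0.09 in V1 (adjusted p = 0.688), where 0.191% of genes were called. With the areas summed it was -0.14 (adjusted p = 0.0617), beside 1.36% of genes called. It passed in 6 of 28 alternatives of the summed fit. Prkar1a, Prkaca and Prkacb had log2 fold changes between -0.08 and 0.04 in the 4 comparisons of single areas, and none was called. None of the 9 tested members passed edgeR's test of the difference between the classes, where 0.832% of genes were called, and 0 had an unadjusted p under 0.05. Of the 9, those with an unadjusted p under 0.05 numbered 0 in PV V1, 2 in PV S1, 1 in Camk2a V1 and 3 in Camk2a S1. The shares of all genes under that threshold were 7.82%, 12.3%, 18.2% and 21.9% in the same order.

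**Figure D2:**
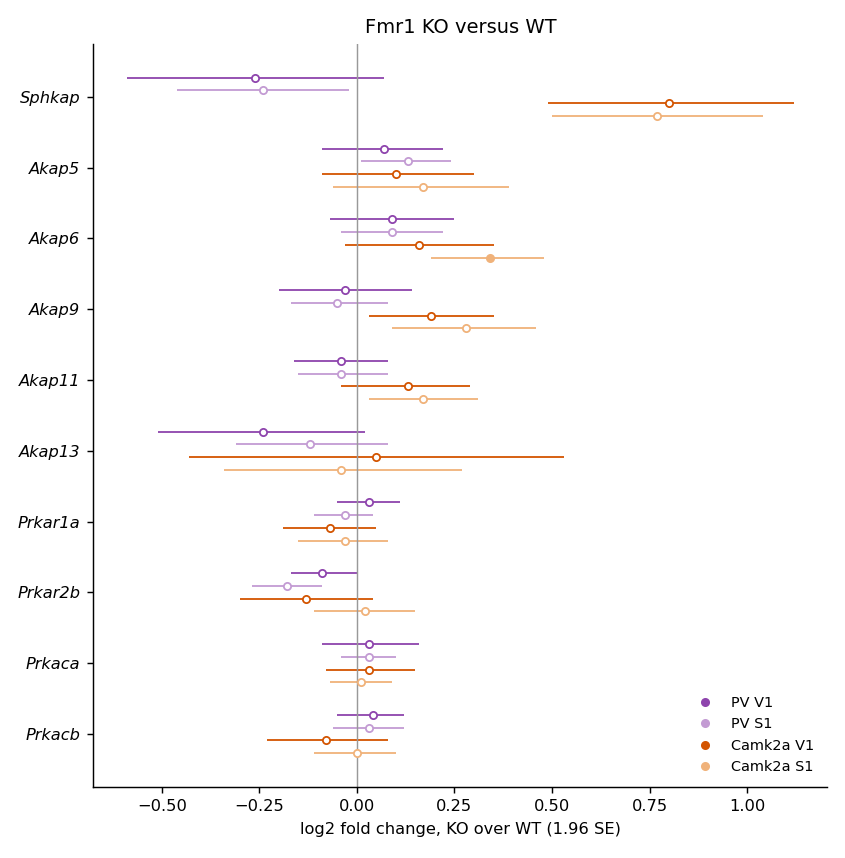
Log2 fold change of each member, KO over WT, with bars of 1.96 SE, for PV V1, PV S1, Camk2a V1 and Camk2a S1. Filled points passed an adjusted p under 0.05, and Sphkap was not tested. The bars of Sphkap serve as no test, since it was chosen on these libraries. Akap6 in Camk2a S1 at 0.34 is the filled point.

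The neuron classes differed more than the genotypes did. Of all genes, 77.3% were called between PV and Camk2a libraries in WT V1 and 77.2% in WT S1, and 6 of the 9 tested members were called in each, a share below that background. In KO, 74.3% of genes were called in V1 and 77.7% in S1, and 6 and 5 of the 9 tested members. The libraries of the classes also differ in the marker levels given above, whose part in these differences was not tested.

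Akap5 was lower in PV than in Camk2a libraries in every combination. In WT V1 it had a lowest, median and highest of 53.6, 68.1 and 94.3 CPM in PV libraries, against 149, 155 and 205 CPM in Camk2a libraries. In KO V1 the values were 62.3, 75.2 and 82.8 CPM in PV libraries, against 136, 179 and 214 CPM in Camk2a libraries. The groups did not overlap in either area. The log2 fold change was -1.15 in WT V1 and -1.33 in WT S1 (adjusted p = 2.32e-09 and 5.32e-13 in edgeR's test), and -1.24 and -1.39 in KO.

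Akap6 and the type II subunit Prkar2b were lower in PV libraries as well. The other type II subunit, Prkar2a, was higher in PV libraries, with values given with the lists below. Akap6 in WT S1 had 140, 171 and 189 CPM (lowest, median, highest) in PV libraries, against 246, 266 and 290 CPM in Camk2a libraries. Its log2 fold changes were -0.45 in WT V1 and -0.64 in WT S1, and -0.60 and -0.93 in KO. Prkar2b in WT S1 had 36.6, 40.5 and 44.3 CPM in PV libraries, against 61.2, 69.2 and 76.9 CPM in Camk2a libraries. Its log2 fold changes were -0.80 in WT V1 and -0.75 in WT S1, and -0.76 and -0.95 in KO. Neither the groups of Akap6 nor those of Prkar2b overlapped in any of the 4 comparisons.

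Prkaca, the most widely expressed catalytic subunit, was higher in PV libraries. In WT S1 it had 285, 318 and 368 CPM in PV libraries, against 206, 210 and 223 CPM in Camk2a libraries. The log2 fold change was 0.39 in WT V1 and 0.59 in WT S1 (adjusted p = 3.49e-05 and 3.83e-11 in edgeR's test), and 0.43 and 0.61 in KO, with no overlap. Prkacb was not called in any of these comparisons, with log2 fold changes from 0.02 to 0.13 and a widest interval, 1.96 SE on either side, of 0 to 0.26. Without P9, P24 and P22 it passed in KO V1, at 0.17 (adjusted p = 0.0149).

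The remaining members differed in fewer comparisons. Akap9 was higher in PV libraries in WT, by 0.28 in V1 and 0.31 in S1 on the log2 scale (adjusted p = 0.0119 and 0.00401 in edgeR's test), and had 0 and -0.03 in KO. Akap13 was higher in PV V1 libraries, with 0.85 in WT and 0.42 in KO (adjusted p = 5.07e-04 and 0.0143 in edgeR's test), and had 0.16 and 0.04 in S1. Akap11 was lower in PV libraries in KO, with -0.29 in V1 and -0.31 in S1, and had -0.06 and -0.07 in WT. The groups of Akap9 and of Akap11 overlapped in every combination. With areas summed, neither Akap11 (adjusted p = 0.417) nor Akap9 (0.447) passed edgeR's test of the genotype effect in PV minus that in Camk2a. Prkar1a was called in WT S1 at 0.13 (adjusted p = 0.0148 in edgeR's test), a call lost without C3, C18 and C19 (adjusted p = 0.077).

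Between the classes Sphkap had a log2 fold change of -0.07 in WT V1 and of 0.45 in WT S1, where 9 of 10 PV libraries lay above the Camk2a mean. In KO its values were -1.21 in V1 and -0.62 in S1. None of these was tested, since the libraries of both genotypes entered the choice of Sphkap.

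**Figure D3:**
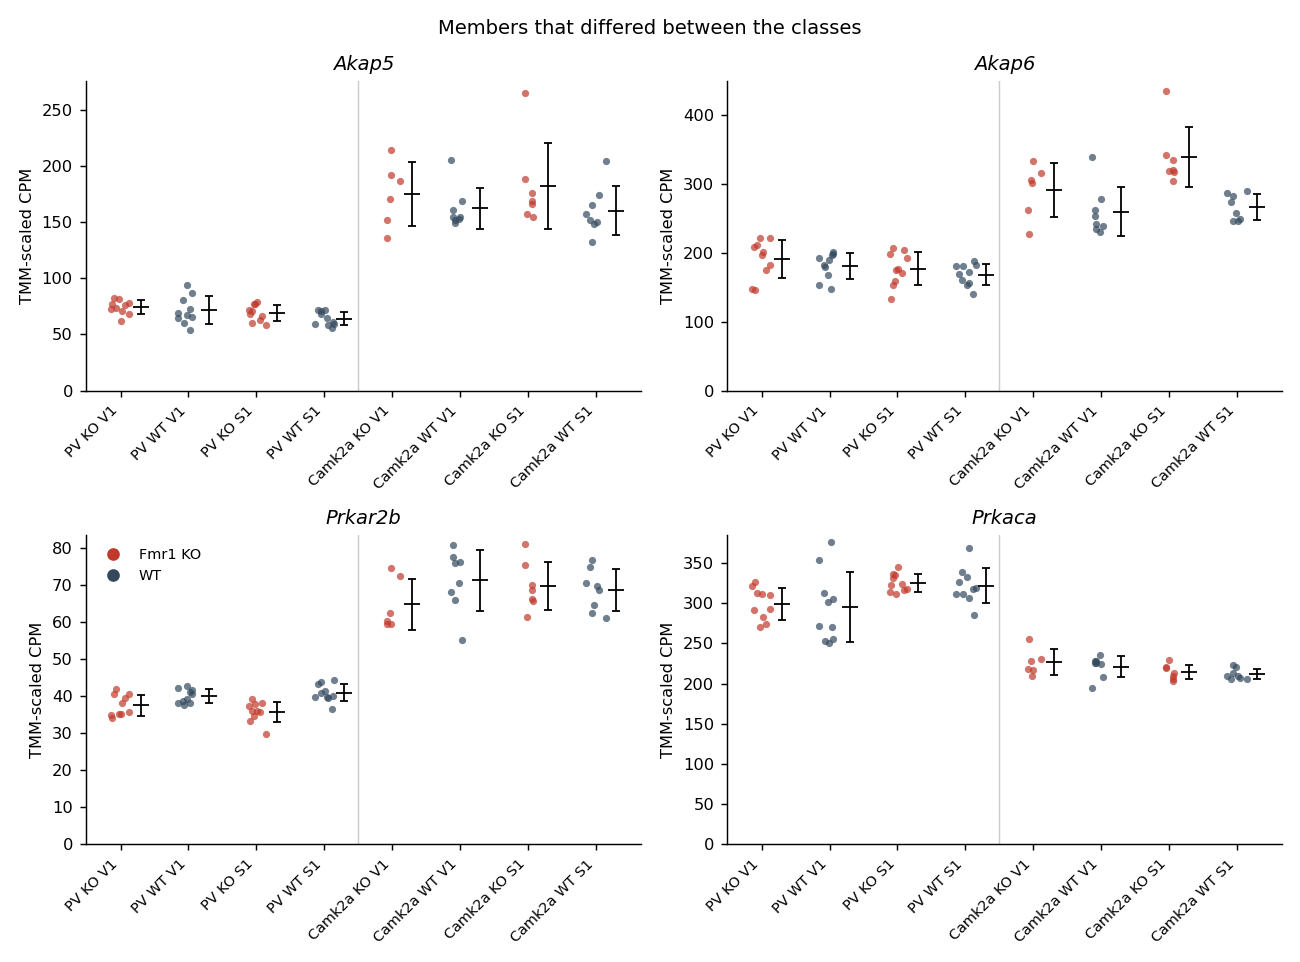
Akap5, Akap6, Prkar2b and Prkaca in TMM-scaled CPM in each library of the 8 groups, with the mean and SD beside the points. Akap5, Akap6 and Prkar2b are lower, and Prkaca is higher, in PV than in Camk2a libraries.

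**Figure D4:**
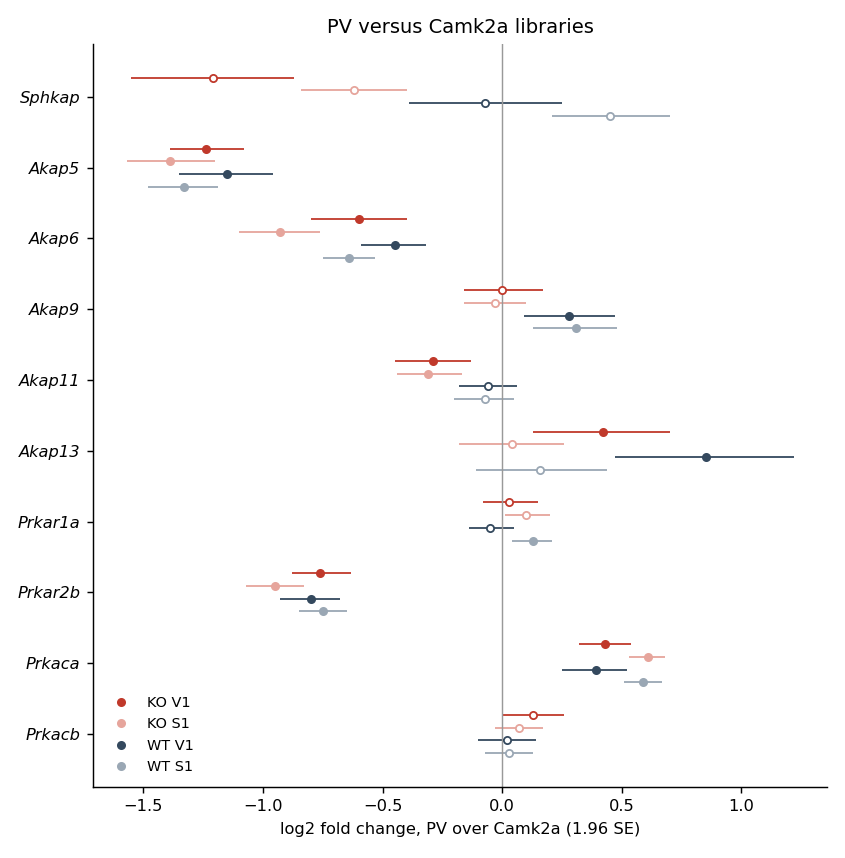
Log2 fold change of each member, PV over Camk2a, with bars of 1.96 SE, in KO and WT and in V1 and S1. Filled points passed an adjusted p under 0.05, and Sphkap was not tested. The bars of Sphkap serve as no test, since it was chosen on these libraries. Akap5 has the lowest WT values, -1.15 in V1 and -1.33 in S1.

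Levels were compared between genes per kilobase of exon, taken over all annotated exons of a gene together. That length was 2488 bases for Prkaca and 8772 bases for Prkacb, and their order depends on it. Unscaled, their means over 69 libraries were 272 and 660 CPM. In WT PV libraries Prkar1a had 181 ± 8.96 CPM per kb (SD, 20 libraries), Prkaca 124 ± 14.6, Prkacb 75.9 ± 6.01, and the anchors between 0.472 for Akap13 and 19.6 for Akap11. In WT Camk2a libraries Prkar1a had 177 ± 16.3 CPM per kb (SD, 16 libraries), Prkaca 87 ± 4.53 and Prkacb 74.4 ± 7.47. Among the anchors there, Akap5 had the highest level, 23.6 ± 2.83 CPM per kb.

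Between areas no member passed edgeR's test as specified, with all libraries and without the animal as a block, in any class and genotype. The background was 7.56% of genes called in PV KO, 20.6% in PV WT, 13.1% in Camk2a KO and 0.359% in Camk2a WT. Members with an unadjusted p under 0.05 numbered 3 in PV KO, 3 in PV WT, 2 in Camk2a KO and 2 in Camk2a WT, where 28.1%, 37.1%, 25.8% and 22.8% of all genes were under it. With DESeq2, 2 passed in PV KO (11.7% of genes called) and 1 in Camk2a WT (7.64% of genes called). Without P9, P24 and P22, whose area scores went against their labels, 4 members passed in PV KO (21.6% of genes called) and 4 in PV WT (31.6% of genes called), namely Sphkap, Prkaca, Akap5 and Prkacb in both. Those animals were left out with earlier results of these libraries known, and their area scores come from the same libraries. Such a choice can itself enlarge area differences. Values and adjusted p without them, here and below, therefore only describe the remaining animals. Sphkap in PV libraries came near. Within animals, Sphkap was lower in V1 than in S1 in 7 of 9 PV KO animals and in 8 of 10 PV WT animals. The animals on the other side were P9 and P24 in KO, and P22 and P4 in WT. The log2 ratio within an animal had a lowest, median and highest of -1.01, -0.57 and 0.51 in PV KO, and of -1.05, -0.64 and 0.87 in PV WT. The log2 fold change, V1 over S1, was -0.42 in PV KO (adjusted p = 0.0563 in edgeR's test) and -0.41 in PV WT (adjusted p = 0.053 in edgeR's test). Without P9, P24 and P22 it was -0.61 (adjusted p = 0.00219) and -0.57 (adjusted p = 6.54e-04). With all libraries, Sphkap passed in PV KO with DESeq2 (adjusted p = 0.026) and with no sex term (adjusted p = 0.0489). With the animal as a block it did not pass in PV KO (adjusted p = 0.111) or in PV WT (adjusted p = 0.072).

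In Camk2a animals Sphkap was higher in V1 than in S1 in 5 of 6 KO animals and in all 7 WT animals, with a median log2 ratio of 0.24 in KO and 0.06 in WT. The fits gave 0.17 in KO (adjusted p = 0.545 in edgeR's test) and 0.11 in WT (adjusted p = 0.633 in edgeR's test). Without the S1 library of C24, and with the V1 library of C24 kept, the value in WT was 0.20 (adjusted p = 0.205). The area effect in PV minus that in Camk2a was -0.60 in KO (adjusted p = 0.113 in edgeR's test, 4.06% of genes called) and -0.52 in WT (adjusted p = 0.164 in edgeR's test, 1.54% of genes called). Without P9, P24 and P22 it was -0.79 in KO (adjusted p = 0.0158, 4.47% of genes called) and -0.69 in WT (adjusted p = 0.0113, 6.28% of genes called). This comparison was added after the area values of Sphkap had been seen.

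Prkaca was also lower in V1 than in S1 in 8 of 9 PV KO animals and 9 of 10 PV WT animals. Its log2 fold change was -0.12 in PV KO (adjusted p = 0.0502 in edgeR's test) and -0.13 in PV WT (adjusted p = 0.106 in edgeR's test). In PV KO it passed in 5 of 7 alternatives, with adjusted p from 0.016 without P9, P24 and P22 to 0.0724 with the animal as a block. In PV WT it passed in 2 of 6, without P9, P24 and P22 (adjusted p = 0.0282) and with the block (adjusted p = 0.0344, 26.6% of genes called). The block called 0 genes in PV KO, where 4780 genes had an unadjusted p under 0.05. As a description of the animals other than P9, P24 and P22, Akap5 was higher in V1 by 0.17 in PV KO and by 0.22 in PV WT on the log2 scale (adjusted p = 0.0456 and 0.026 in edgeR's test). In the same animals Prkacb was higher by 0.17 in PV KO and by 0.14 in PV WT (adjusted p = 0.00806 and 0.00942 in edgeR's test). In Camk2a KO, the block brought Akap6 (log2 fold change -0.25, adjusted p = 0.0149) and Akap13 (-0.40, adjusted p = 0.013) past the threshold, beside 20.9% of all genes called by that fit, and both were lower in V1 in all 6 animals. Prkar1a was higher in V1 in all 6 Camk2a KO animals and in 6 of 7 Camk2a WT animals, the exception being C24. In Camk2a WT its log2 fold change was 0.17 (adjusted p = 0.0742 in edgeR's test). Without the S1 library of C24, and with the V1 library of C24 kept, it was 0.21 (adjusted p = 0.00737, 17.4% of genes called).

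**Figure D5:**
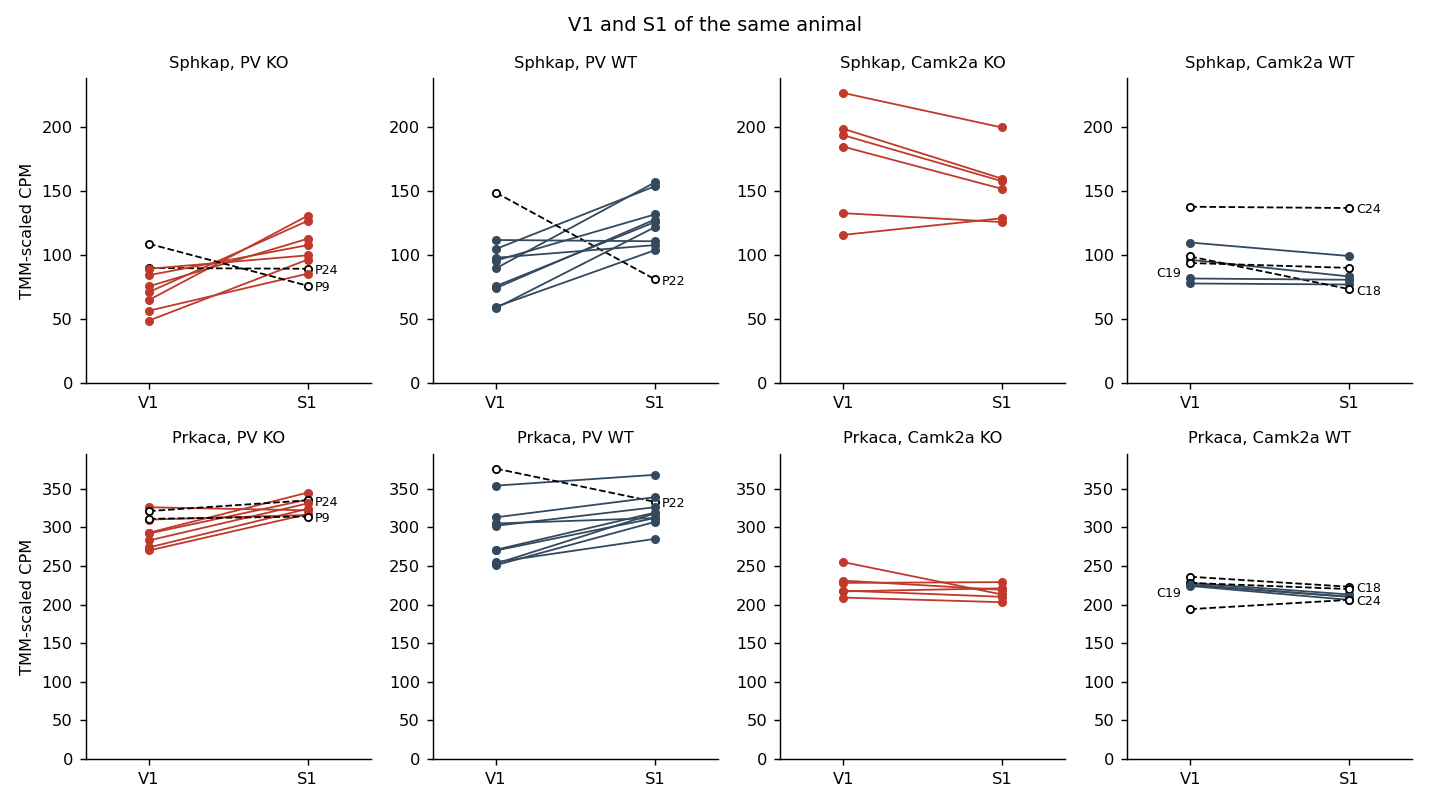
Sphkap (top) and Prkaca (bottom) in TMM-scaled CPM in V1 and S1 of the same animal, by class and genotype. Dashed black lines mark P9, P22, P24, C18, C19 and C24, whose area scores went against a label. In C18 and C19 the score of V1 still lay above that of S1. Sphkap is lower in V1 in 7 of 9 PV KO and 8 of 10 PV WT animals.

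Other genes of the pathway were read from lists, beside 77.3% of all genes called between classes in WT V1. Of 6 other PKA subunits and inhibitors, 6 were called between classes in WT V1, 2 higher and 4 lower in PV libraries. Prkx, a kinase related to the catalytic subunits, was higher at 2.17 on the log2 scale, with 19.3 to 30.5 CPM in PV libraries and 4.13 to 6.98 CPM in Camk2a libraries. Pkig, a PKA inhibitor, was lower at -1.23, and the type I subunit Prkar1b at -0.53. The type II subunit Prkar2a was higher, at 0.20 in WT V1 and 0.47 in WT S1, and at 0.19 and 0.32 in KO. The groups of Prkar2a overlapped in V1 and not in S1. Of 24 other anchors tested there, 11 were higher and 8 lower, a share near that of all genes. Wasf1, an actin regulator that can anchor PKA, was lower at -2.68.

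Of 17 CREB and phosphoprotein targets, 3 were higher and 9 lower in PV libraries in WT V1, where 6501 of all 16330 genes tested were higher and 6117 lower. Arpp19, a PKA phosphoprotein, had 40.7 to 61.7 CPM in PV libraries and 381 to 512 CPM in Camk2a libraries, and Crtc1, a coactivator of CREB, was lower at -1.77. Of 10 calcineurin and protein kinase C partners of the anchors, 1 was higher and 7 lower, among them the calcineurin subunits Ppp3ca (-2.16) and Ppp3r1 (-1.95). The median log2 fold change of all genes was 0.033 in this comparison.

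From these lists, Ppp1r1a (of 17 CREB and phosphoprotein targets) and Ppp3cb (of 10 calcineurin and protein kinase C partners) passed by genotype. Ppp1r1a, an inhibitor of protein phosphatase that PKA activates, fell in PV V1, with 18.6, 20.9 and 24.3 CPM (lowest, median, highest) in KO libraries against 23.2, 26.5 and 32.8 CPM in WT libraries. Its log2 fold change was -0.37 (adjusted p = 0.0177 in edgeR's test), beside 0.191% of all genes called there. All 10 KO libraries lay below the WT mean, and the groups overlapped. Ppp1r1a was not called in PV S1. With the areas summed its log2 fold change was -0.30 (adjusted p = 0.00369 in edgeR's test), where 1.36% of genes were called, and the groups overlapped. In Camk2a S1 the calcineurin subunit Ppp3cb rose by 0.17 (adjusted p = 0.0351 in edgeR's test), with all 7 KO libraries above the WT mean. The groups overlapped, and 4.09% of all genes were called there. No other subunit, inhibitor or anchor of the lists was called in any KO versus WT comparison.

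The genes whose levels varied most like Sphkap, after the mean of each group was removed, were Strip2 (r = 0.78), Mical3 (0.71), Sipa1l1 (0.65), Grin2a (0.65) and Zfp462 (0.65), over 69 libraries and among 13388 genes. The Spearman rank correlation was 0.77, 0.72, 0.66, 0.56 and 0.63 for the same genes in that order. These libraries share animals, depth and dissection, so the correlations are a description. Without P9, P24 and P22 the Pearson r of these genes was 0.76, 0.72, 0.69, 0.54 and 0.66. Among the members, Akap11 had r = 0.52, Prkaca -0.18 and Prkacb -0.23, and without P9, P24 and P22 these were 0.68, -0.49 and -0.02. Akap13 had 0.46, Akap6 0.26, Akap9 0.21 and Akap5 0.08, and without those animals 0.61, 0.45, 0.27 and 0.34. Prkar2b had 0.03 and Prkar1a -0.13, and without them 0.13 and 0.01.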

How the data were processed

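RiboTag immunoprecipitates were measured by RNA-seq. The authors deposited 1 table of estimated counts per gene, not normalized, in which 71.1% of values were not whole. The submitters' processing notes name STAR, Salmon, limma and mm10, with no role or version, and the annotation release is not stated. Reads from sequence common to several transcripts are shared out by estimation, so close paralogs such as Prkaca and Prkacb may exchange reads. Amplification was without molecular identifiers. Errors in the KO versus WT and class comparisons were between animals. The area fits without the animal as a block treated V1 and S1 libraries of an animal as independent, so their errors were between libraries.

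Counts were rounded, filtered with filterByExpr, scaled with TMM and tested with edgeR 4.0.16 (R 4.3.3; glmQLFit, robust; glmQLFTest) with a sex term, and p-values were adjusted by Benjamini-Hochberg over all genes tested. Calls are at an adjusted p under 0.05. CPM values are TMM-scaled over 69 libraries. Gene symbols and exon lengths came from GENCODE M21, which named 17614 of 17634 genes. DESeq2 1.42.0 and limma 3.58.1 (voom, animal as a random block) were alternatives, with other scaling, filters, covariates and animals left out. The script was tested on simulated counts. The area score is the mean log2(CPM + 1) of 50 genes higher in V1 minus that of 50 lower, taken from Camk2a KO for PV libraries and from PV WT for Camk2a libraries.

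The library names give animal codes, and 32 of 37 animals had both areas. Same-animal libraries deviated together (median r 0.17 to 0.52 by group), with single animals down to -0.18. Within each of the 8 groups no library was present a second time (smallest chi-square per degree of freedom 4.49). Libraries of different groups were not compared in this way. The labels do not say more about litters or days. The members and lists were chosen with earlier results of these data known. The class difference of Sphkap in WT, which the design had as a test, is given without one because the choice of Sphkap used those libraries. Named list genes were at most 2 called genes per list and direction with the smallest p, of which the text names some, and the genes most like Sphkap were the 5 with the highest Pearson r among genes with a mean of at least 1 CPM.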

Additional observations from a re-analysis of the deposited data

Results flagged for a closer look

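Of 80 sets of values (10 members in 8 groups), 7 held a library far from the others, and chance flags about 1 in 20. Of these, 4 were the S1 library of Camk2a KO animal C4, with Akap5 at 265 CPM (next 188), Akap6 at 435 CPM (next 342), Prkar1a at 849 CPM (next 717) and Prkacb at 722 CPM (next 632). In Camk2a WT V1 the library of C24 had Akap5 at 205 CPM (next 169) and Akap6 at 339 CPM (next 279). In PV KO V1 the library of P9, one of those whose area score went against its label, had Prkacb at 584 CPM (next 673). The same C4 library had the highest summed astrocyte markers of its group, 1400 CPM, whose part was not tested.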

How the results depend on the processing

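Of 1950 single-member values under alternatives, 1904 kept their side of the threshold or, where no test applies, stayed within the spread between libraries; 42 passed where the reported fit did not, and 4 were lost. There were 16 changes of sign, among values of at most 0.1 on the log2 scale.

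By genotype, the number of the 9 tested members called was 1 (Prkar2b) in PV S1 with DESeq2, and 1 (Prkar2b) in PV with areas summed under DESeq2, the glial score, the excitatory marker score and limma-voom, against 0 as reported. DESeq2 called 310 of 17626 genes in PV S1. With areas summed, the fits named called 471 of 17627, 343 of 17154, 349 of 17154 and 323 of 16785 genes, in that order. Leaving out animals in turn gave 0 to 1 member there, with 144 to 255 genes called. In Camk2a S1, with 1 member as reported, the number was 0 without C3, C18 and C19 and with the glial score, and 2 without C24. Those fits called 299 of 15627, 433 of 15691 and 1634 of 15623 genes. Leaving out libraries in turn gave 0 to 2 members, with 253 to 1634 genes called. In Camk2a with areas summed, with 0 members as reported, the number was 1 with DESeq2 and without C24, and 2 with limma-voom. Those fits called 1713 of 17623, 1347 of 16711 and 1481 of 16283 genes. Leaving out animals in turn gave 0 to 1 member, with 235 to 1347 genes called.

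Between areas, no member was called as reported. Without P9, P24 and P22 the number was 4 in PV KO and 4 in PV WT (21.6% and 31.6% of genes called). The fit with the animal as a replicate block gave 1 in PV WT and 2 in Camk2a KO (26.6% and 20.9% of genes called). In PV KO, RLE size factors and sex by Y-linked genes each gave 1, and no sex term and DESeq2 each gave 2. In that order these fits called 1255, 1372 and 1333 of 16118 genes, and 2061 of 17628 with DESeq2. In Camk2a WT, DESeq2 and leaving out the S1 library of C24 each gave 1 (7.64% and 17.4% of genes called). For PV minus Camk2a, the number of members was 1 in WT without the S1 library of C24 or without P9, P24 and P22. In KO it was 1 with DESeq2, 2 without P9, P24 and P22, and 3 with the block. The reported fits called 1.54% of genes in WT and 4.06% in KO, and without P9, P24 and P22 6.28% and 4.47%. The block called 1043 genes in KO, against 701 as reported. The alternatives called 83 to 1068 genes in WT and 676 to 1043 in KO.

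Counts over all genes moved more. In Camk2a, KO versus WT gave 222 genes in V1 (15 without C3, C18 and C19; 868 with DESeq2), 641 in S1 (253 without C16; 1634 without C24) and 688 with areas summed (131 without C3, C18 and C19; 1713 with DESeq2). In PV it gave 31 in V1 (up to 121 with the glial score), 122 in S1 (81 without P9, P24 and P22; 310 with DESeq2) and 234 with areas summed (81 to 471). The difference between classes gave 146 (74 without P9, P24 and P22; 270 with DESeq2). Between areas, the paired edgeR fit gave 0 genes in PV KO, with 4780 at an unadjusted p under 0.05, against 1218 as reported and 3479 without P9, P24 and P22. It gave 3276 in Camk2a KO against 2058, and 7 in Camk2a WT against 56, where leaving out the S1 library of C24 gave 2727. PV WT gave 3291, and 5060 without P9, P24 and P22. The difference of the area effect between classes in WT gave 263 (83 without C3, C18 and C19; 1068 without P9, P24 and P22). The causes were not tested.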
